A study of Mus musculus with 15 samples.

Results

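The Slc25 genes encode the mitochondrial carriers, and 45 protein-coding genes with symbols of the form Slc25a followed by a number were taken from the 46603 genes of the count files. The 37 of them with 10 or more counts in at least 3 samples are described here, and all 37 passed the low-count filter of the test. The other 8 (Slc25a2, Slc25a18, Slc25a21, Slc25a31, Slc25a41, Slc25a43, Slc25a48 and Slc25a54) stayed below that rule, and Slc25a43 had 0 counts in all 15 samples. RNA-Seq was performed on mouse embryonic fibroblasts (MEFs), primary cells from wild-type BALB/c embryos of 10.5 days, in 5 conditions with 3 samples each. MEFD0 was taken at day 0 in growth medium, DMEM with 10% FBS. MEFD3min and MEFD5min were untreated cells at day 3 and day 5. MEFD3plu cells received 4 factors in that medium for 3 days, namely IBMX (0.5 mM), a phosphodiesterase inhibitor that raises cAMP, insulin (10 μg/mL), the glucocorticoid dexamethasone (1 μM) and the PPARγ agonist rosiglitazone (10 μM). MEFD5plu cells had that treatment for 3 days and then growth medium without these factors until day 5, so that the comparison at day 5 is between formerly treated and untreated cells. The labels give no clone, pool or culture for a sample, so p-values measure the spread between these samples, which may be technical in part.

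Mitochondrial carriers sit in the inner mitochondrial membrane, share a fold of repeated helices, and pass solutes between the cytosol and the matrix, mostly by exchange. ADP/ATP carriers and the phosphate carrier feed ATP synthase, the citrate and dicarboxylate carriers connect the tricarboxylic acid cycle with fatty acid synthesis in the cytosol, and others bring in amino acids, nucleotides, cofactors, iron or glutathione. In fat cells the citrate carrier is known for supplying the citrate from which ATP citrate lyase makes cytosolic acetyl-CoA, and mitochondria multiply as adipocytes form.

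More carriers were higher than lower in treated cells, and the size of the difference varied widely between carriers. Slc25a10, Slc25a33, Slc25a34, Slc25a35 and Slc25a42 were at least 2-fold higher in treated cells at both days, whereas Slc25a13, Slc25a23 and Slc25a24 were lower at both. Slc25a34 met the count rule only through its treated samples, so its direction was fixed by that rule. Slc25a3, Slc25a30 and Slc25a37 changed sides, being above untreated cells at day 3 and below them at day 5. The most abundant carrier, Slc25a4, had a log2 fold change of 0.00 ± 0.12 (SE) at day 3, while its close relative Slc25a5 was 2.80-fold higher.

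Windows of 250 bases before the RefSeq transcription start (GRCm38.p6) were found for 29 of the 37 carriers and not for Slc25a26, Slc25a27, Slc25a32, Slc25a35, Slc25a37, Slc25a44, Slc25a46 and Slc25a51. The windows of Slc25a10, Slc25a33, Slc25a34 and Slc25a42 are shown because these carriers were at least 2-fold higher in treated cells at both days. They lie at chr11:120491587-120491836 on the plus strand for Slc25a10 and, on the minus strand, at chr4:149774268-149774517 for Slc25a33, chr4:141623835-141624084 for Slc25a34 and chr8:70212282-70212531 for Slc25a42. The Slc25a10 window overlaps an exon of Gm11788, an antisense gene. The bases next after the window were found in an annotated transcript (GENCODE M21) for Slc25a33 and Slc25a42, but not for Slc25a10 or Slc25a34. Each window is printed 5′ to 3′ on the strand of the gene, and capitals mark a match to a motif searched.
Slc25a10: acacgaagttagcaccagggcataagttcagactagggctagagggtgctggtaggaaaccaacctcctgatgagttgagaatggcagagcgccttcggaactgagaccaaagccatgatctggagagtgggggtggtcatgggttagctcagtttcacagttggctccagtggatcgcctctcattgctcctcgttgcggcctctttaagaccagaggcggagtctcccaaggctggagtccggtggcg
Slc25a33: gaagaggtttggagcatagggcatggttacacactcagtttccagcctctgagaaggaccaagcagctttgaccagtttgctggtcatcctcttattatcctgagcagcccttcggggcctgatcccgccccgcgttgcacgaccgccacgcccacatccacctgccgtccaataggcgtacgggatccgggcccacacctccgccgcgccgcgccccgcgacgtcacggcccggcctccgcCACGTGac
Slc25a34: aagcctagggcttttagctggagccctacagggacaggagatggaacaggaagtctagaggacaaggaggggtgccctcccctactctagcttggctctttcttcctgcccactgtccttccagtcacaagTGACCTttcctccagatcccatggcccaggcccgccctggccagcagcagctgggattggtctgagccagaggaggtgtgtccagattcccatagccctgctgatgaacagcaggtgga
Slc25a42: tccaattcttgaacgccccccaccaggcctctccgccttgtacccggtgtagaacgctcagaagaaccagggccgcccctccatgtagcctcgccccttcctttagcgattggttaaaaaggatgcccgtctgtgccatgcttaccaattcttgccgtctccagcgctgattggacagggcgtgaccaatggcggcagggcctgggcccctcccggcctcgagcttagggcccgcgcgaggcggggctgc

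In these windows, exact matches were sought on both strands to the C/EBP palindrome TTGCGCAA, the cAMP response element TGACGTCA, the nuclear receptor motif AGGTCA, the estrogen-related receptor element TCAAGGTCA (which contains AGGTCA), the sterol response element TCACCCCAC, the palindromic NRF1 element and the E-box CACGTG. The Slc25a33 window held CACGTG starting 8 bases before the RefSeq start, and 6.02% of all 32851 RefSeq windows of this length held that motif. In GENCODE M21 Slc25a33 extends to chr4:149774277, past the RefSeq start, so this match lies within the annotated gene there. The Slc25a34 window held AGGTCA on the other strand, from 119 bases before the start, against 14% of all windows. The windows of Slc25a10 and Slc25a42 held none of the 7 motifs. These shares are per window, and some genes have more than 1 start: 6 of the 29 carriers had more than 1 window, 38 windows in all. Counted per gene, with a match in any window, CACGTG occurred in 6 of the 29 (Slc25a1, Slc25a13, Slc25a14, Slc25a15, Slc25a33 and Slc25a36), against 6.86% of the 27025 genes with a window, AGGTCA in 4 (Slc25a34, Slc25a39, Slc25a45 and Slc25a47) against 15.8%, TGACGTCA in 2 (Slc25a25 and Slc25a36) against 1.77%, and the other 4 motifs in 0. The other 4 were found in 0.185% (TTGCGCAA), 0.422% (TCAAGGTCA), 0.555% (TCACCCCAC) and 0.877% (NRF1 element) of genes with a window. Counted per window, CACGTG was in 7, AGGTCA in 4 and TGACGTCA in 2 of the 38, against 6.02%, 14% and 1.55% of all windows. Windows of a gene can overlap, and the 7 include 2 windows of Slc25a14 that hold the same CACGTG site.

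The libraries held 24030558 to 37281126 counts, of which the 37 carriers made up 0.233% to 0.370%. Fibroblast markers were present in every sample, and of 9 such markers 7 were lower and 1 higher in MEFD3plu than in MEFD3min, while 3 were lower and 2 higher in MEFD5plu than in MEFD5min. The summed level of 9 adipocyte markers was 46.2 to 69.9 CPM (counts scaled to the library size) in the 9 samples of MEFD0, MEFD3min and MEFD5min, 9779 to 12255 in MEFD3plu and 11288 to 13344 in MEFD5plu, and 9 of 9 were higher with treatment at both days. Over all genes tested, 28% were called higher and 28% lower at day 3, and 26.3% and 24.2% at day 5. Transcripts of the mitochondrial genome took 5.26% to 6.64% of the counts in MEFD3plu against 2.44% to 4.12% in MEFD3min, and 4.96% to 5.86% in MEFD5plu against 2.19% to 2.61% in MEFD5min. Of other cell types, summed markers reached at most 15.1 CPM for macrophages (Ptprc, Adgre1, Csf1r and Tyrobp under 1 CPM in every sample), 2.23 for endothelium, 1.19 for epithelium and 2.14 for skeletal muscle. The remaining macrophage markers were detected, Cd14 with 58 to 376, Cd68 with 46 to 142 and Lyz2 with 6 to 106 counts per library. Smooth muscle markers summed to 478 to 554 CPM in MEFD0, 119 to 171 in MEFD3min, 18.2 to 24.2 in MEFD3plu, 719 to 820 in MEFD5min and 192 to 201 in MEFD5plu. The part of these shifts in the carrier values was not tested, and in bulk samples a change in the share of a cell type and a change in RNA per cell cannot be told apart.

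Levels are compared between carriers as CPM per kilobase of exon. The length is the union of all annotated exons of a gene, and ranks and shares between carriers depend on it. It is 5550 bases for Slc25a3 and 2164 for Slc25a1. In CPM, without division by length, Slc25a3 was above Slc25a1 in every MEFD5plu sample and above Slc25a5 in every MEFD0 sample. The 3 highest carriers of a sample held 54.9% to 67.3% of the summed level of the 37, and they were the ADP/ATP carriers Slc25a4 and Slc25a5 and the phosphate carrier Slc25a3 in 13 of 15 samples, with Slc25a1 in place of Slc25a3 in 2 MEFD5plu samples. Slc25a4 was first in every condition, at 349 ± 21.8 CPM per kb in MEFD0, 281 ± 50.01 in MEFD3min and 282 ± 36.3 in MEFD3plu, and at day 5 259 ± 14.7 in MEFD5min and 318 ± 20.6 in MEFD5plu (means with SD over 3 samples). Slc25a5 was at rank 2, with 296 ± 19.9, 87.5 ± 18.6, 245 ± 19.00, 169 ± 7.79 and 253 ± 20.1 CPM per kb in the same order. In MEFD3plu the samples of both genes overlapped, as did Slc25a5 and Slc25a3 at rank 3 in MEFD3min, whereas in MEFD0, MEFD5min and MEFD5plu Slc25a4 and Slc25a5 did not overlap. Below them the order differed between conditions. Slc25a24 was at rank 4 in MEFD0 and MEFD5min, at 78.3 ± 2.17 and 48.8 ± 5.16 CPM per kb, but at rank 15 in MEFD3plu, at 13.4 ± 0.744. Slc25a1 was level with Slc25a3 in MEFD5plu, at 64.6 ± 5.35 against 65.5 ± 1.46 CPM per kb, with overlapping samples. The lowest places were held by Slc25a34 in MEFD0, MEFD3min and MEFD5min (means of 0.0147 to 0.0271 CPM per kb) and by Slc25a23 in MEFD3plu and MEFD5plu (means of 0.316 and 0.166).

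**Figure D1:**
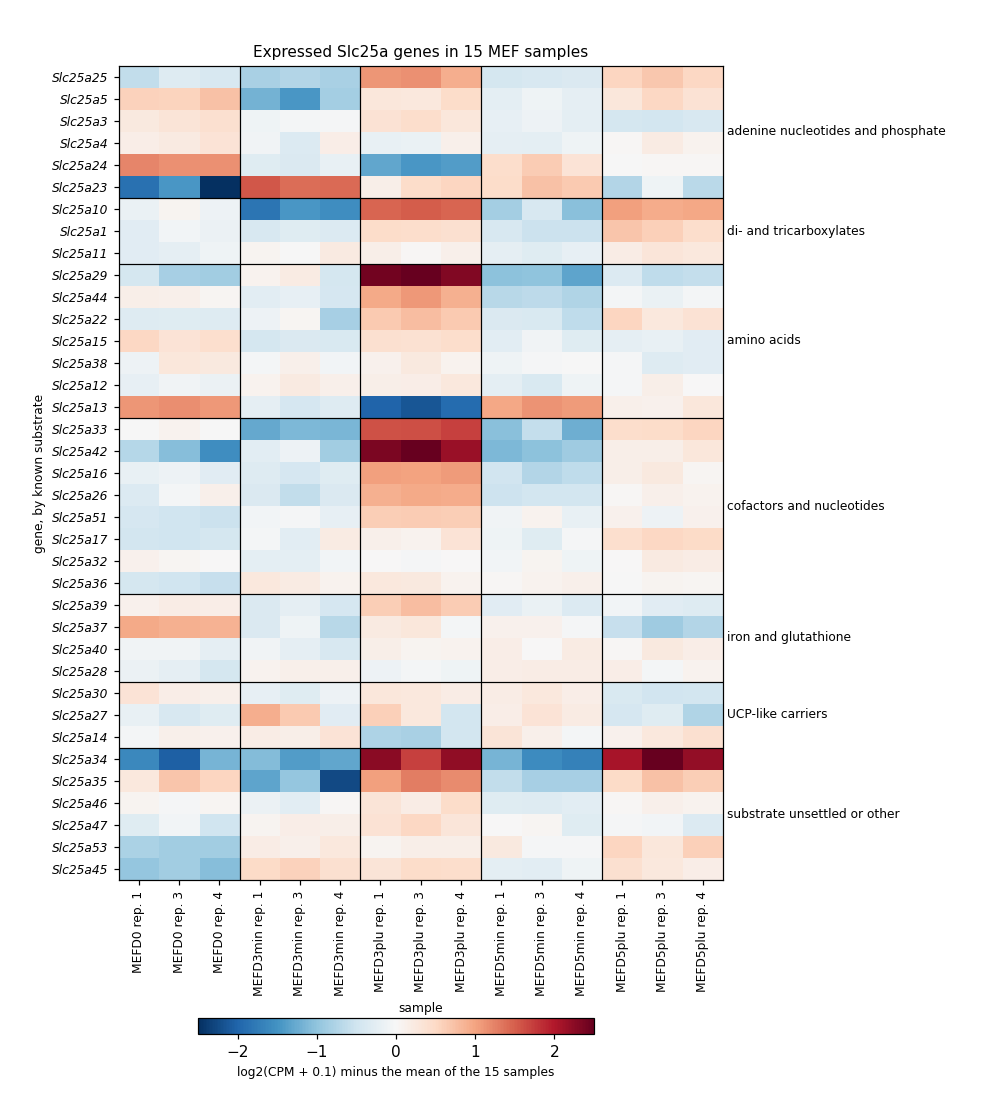
The heatmap shows log2(CPM + 0.1) of each of the 37 carriers minus its mean over the 15 samples, with genes in rows by known substrate and samples in columns by condition; red is above and blue below the gene's own mean, and colours end at 2.5 on either side. Within their rows, Slc25a29, Slc25a42 and Slc25a33 are darkest red and Slc25a13 darkest blue in the 3 MEFD3plu columns.

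At day 3, 26 of the 37 carriers passed the test in MEFD3plu/MEFD3min, against 56.1% of all 15997 genes tested (adjusted p from edgeR, quasi-likelihood test, Benjamini-Hochberg over all genes). Of these, 21 were higher and 5 lower in treated cells, where over all genes 28% were higher and 28% lower. The median log2 fold change of the 37 was 0.45, against -0.0006 over all genes tested. In 28 of the 37 all treated samples lay on one side of all untreated ones, against 56.8% of all genes, and 15 were called with a change of at least 2-fold, against 23.8%. At day 5, 27 carriers passed in MEFD5plu/MEFD5min against 50.5% of all genes, 20 of them higher (26.3% of all genes) and 7 lower (24.2%). The median of the 37 was 0.30 against 0.01 over all genes, 28 did not overlap (62.1% of all genes), and 7 were called with at least 2-fold (15.3%). With libraries scaled by their totals alone, the split at day 5 was 16 higher and 10 lower, and the median over all genes moved to -0.15. Of the 8303 genes called in that setting, 37% were higher. Slc25a34, a carrier only through its treated samples under the count rule, is among the higher and the 2-fold counts at both days.

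The difference between both effects, the treatment by day interaction (day 3 minus day 5), passed for 24 carriers against 48.5% of all genes. It was positive for 16 and negative for 8 (22.6% and 25.8% of all genes), its median was 0.31 against -0.033 over all genes, and 8 were called with a difference of at least 2-fold (21.8%). The split was 18 and 5 with library totals alone, where the median over all genes moved to 0.15, and 17 and 5 with DESeq2 size factors. Of all genes called, 59.5% and 49.5% were positive in these settings, against 46.7% in the main fit. Both comparisons come from the same fit and use different samples. Of the 21 carriers higher with treatment at day 3, 14 were also higher at day 5, 3 were lower and 4 did not pass. Of the 5 lower at day 3, 3 were lower at day 5 and 2 did not pass. A further 6 were higher at day 5 alone among these 2 tests (Slc25a4, Slc25a11, Slc25a12, Slc25a17, Slc25a45 and Slc25a53), Slc25a27 was lower, and Slc25a32, Slc25a36, Slc25a38 and Slc25a47 passed at neither day in the main fit. These classes across both days were not counted over all genes, so whether they are particular to carriers was not tested.

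**Figure D2:**
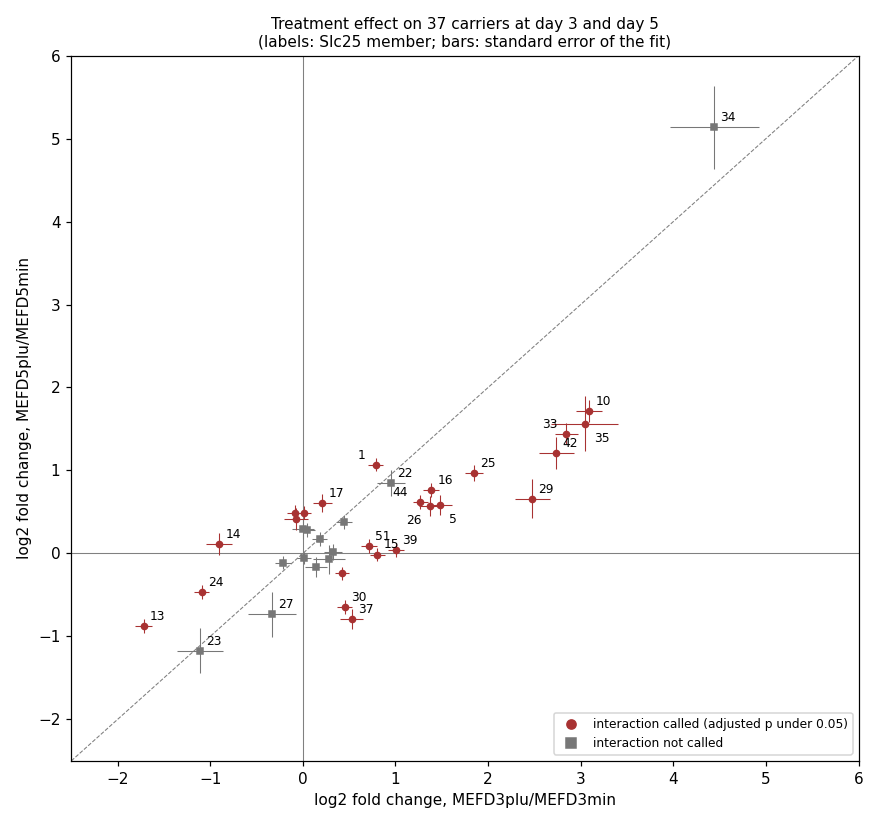
Each point is a carrier, with the log2 fold change of MEFD3plu/MEFD3min on the horizontal axis, that of MEFD5plu/MEFD5min on the vertical axis, bars of 1 standard error of the fit and a dashed line of equal effects; red circles passed the interaction test, grey squares did not, and numbers name the Slc25a member where space allowed. Most carriers with a large effect lie below the line on the right, such as Slc25a10 at 3.09 and 1.72, while Slc25a37 and Slc25a30 lie to the right of 0 and below it.

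The counts of the 7 role groups, of 3 to 8 carriers each, stand against 28% of all genes higher and 28% lower at day 3, and 26.3% higher and 24.2% lower at day 5. Of the 3 carriers of citrate and dicarboxylates, 2 were above untreated cells at day 3 and 3 at day 5 by the test. Slc25a10 (chr11:120491840-120499187, plus strand), positions of genes being those of GRCm38, is the dicarboxylate carrier, which exchanges malate or succinate for phosphate. Its level was 11.03, 14.5 and 13.4 CPM in the 3 MEFD3min samples and 109, 114 and 109 in MEFD3plu. At day 5 it was 21.98, 30.1 and 19.2 CPM in MEFD5min and 80.5, 75.2 and 77.4 in MEFD5plu, and MEFD0 lay between at 35.02, 41.7 and 36.1. All treated samples were above all untreated ones at both days and above MEFD0. The effect of treatment on the log2 scale was 3.09 ± 0.14 (SE), adjusted p = 7.8e-12, at day 3 and 1.72 ± 0.13 (SE), adjusted p = 1.89e-08, at day 5, and the effect was larger at day 3 by 1.37 ± 0.19 (SE), adjusted p = 1.43e-05. The antisense gene Gm11788 overlaps 6.6% of its exon bases, and since the sources used here do not settle whether reads were counted by strand, reads of overlapping genes on opposite strands cannot be told apart.

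Slc25a1 (chr16:17925223-17928219, minus strand), the citrate carrier, was at 76.6, 89.8 and 85.3 CPM in MEFD0, 70.7, 75.7 and 74.4 in MEFD3min and 129, 127 and 124 in MEFD3plu. The MEFD5min samples were at 70.9, 64.5 and 64.6 CPM and the MEFD5plu samples at 151, 141 and 128. The untreated samples kept to a narrow band of 64.5 to 89.8 CPM and every treated sample was above it. Treated cells differed by a log2 fold change of 0.79 ± 0.08 (SE), adjusted p = 2.6e-07, at day 3 and 1.07 ± 0.08 (SE), adjusted p = 1.4e-08, at day 5. The difference between the days was -0.28 ± 0.11 (SE), adjusted p = 0.0489, and this call was lost in 10 of 12 fits that left out 1 sample (adjusted p up to 0.179) and in 5 of 7 alternative settings (adjusted p up to 0.509).

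Slc25a11, the oxoglutarate carrier, which exchanges oxoglutarate for malate in the malate-aspartate shuttle, was at 80.4, 83.6 and 90.6 CPM in MEFD0, 102, 96.8 and 114 in MEFD3min and 108, 99.4 and 107 in MEFD3plu, where the groups overlapped. At day 5 it was 83.5, 79.5 and 84.8 CPM in MEFD5min and 110.5, 121 and 117 in MEFD5plu. The log2 fold change was 0.01 ± 0.08 (SE), adjusted p = 0.928, at day 3 and 0.49 ± 0.08 (SE), adjusted p = 6.38e-05, at day 5, and the interaction was -0.48 ± 0.11 (SE), adjusted p = 0.00172. Rnf167 overlaps 8.9% of its exon bases on the other strand.

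**Figure D3:**
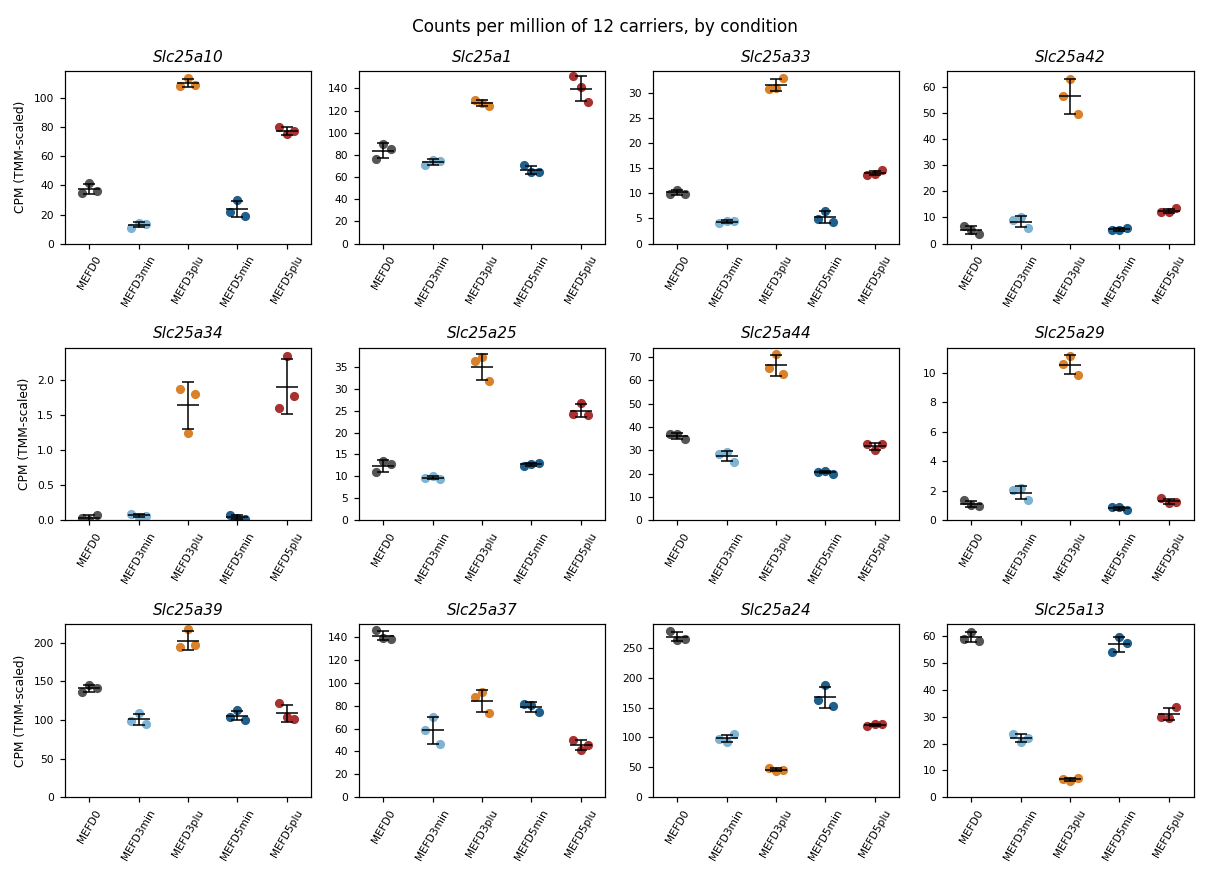
CPM (TMM-scaled) of 12 carriers in MEFD0, MEFD3min, MEFD3plu, MEFD5min and MEFD5plu, with a point per sample and bars for the mean ± SD (n = 3); each panel has its own vertical axis from 0. Slc25a10, Slc25a33, Slc25a42 and Slc25a29 have their highest points in MEFD3plu, Slc25a34 is near 0 in all untreated samples, and Slc25a24 and Slc25a13 have their lowest points in MEFD3plu.

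Among the carriers of adenine nucleotides and phosphate, 3 of 6 were higher and 2 lower at day 3, and 3 were higher and 3 lower at day 5. Slc25a4 (chr8:46206797-46211284, minus strand), the ADP/ATP carrier prominent in heart and muscle, was at 774, 813 and 875 CPM in MEFD0, 657, 547 and 782 in MEFD3min and 609, 618 and 761 in MEFD3plu. It was at 592, 586 and 648 CPM in MEFD5min and 704, 799.9 and 741 in MEFD5plu. The groups overlapped at day 3, with a log2 fold change of 0.00 ± 0.12 (SE), adjusted p = 0.993. At day 5 they did not overlap and it was 0.30 ± 0.12 (SE), adjusted p = 0.0463, which no longer passed in 5 of 6 fits that left out 1 sample (adjusted p up to 0.155), with DESeq2 (0.25, adjusted p = 0.0789) or with library totals alone (0.13, adjusted p = 0.283).

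Slc25a5 (chrX:36795651-36798807, plus strand), the ADP/ATP carrier of growing cells, was at 471, 467 and 526 CPM in MEFD0, 139.6, 116 and 177 in MEFD3min and 387, 382 and 439 in MEFD3plu. It was at 268, 292 and 272 CPM in MEFD5min and 388, 453 and 409 in MEFD5plu. The 3 MEFD3min samples stood lowest of all 15, and the treated samples at both days were above the untreated of the same day. On the log2 scale the treatment effect was 1.48 ± 0.12 (SE), adjusted p = 1.65e-08, at day 3 and 0.58 ± 0.12 (SE), adjusted p = 0.000661, at day 5, with an interaction of 0.90 ± 0.17 (SE), adjusted p = 0.000342. Slc25a5 made up 23.2% to 24.4% of the sum of Slc25a4 and Slc25a5 (CPM per kb) in MEFD3min against 45.2% to 47.6% in MEFD3plu, 37.5% to 41.6% in MEFD5min against 44.1% to 44.7% in MEFD5plu, and 45.1% to 46.6% in MEFD0. In total, 33.8% of the 50-base stretches of the Slc25a5 transcripts occur in other genes, most often in Gm5560, so its counts depend on how such reads were assigned, which the sources used here do not give.

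Slc25a3 (chr10:91116574-91124059, minus strand), the phosphate carrier, was at 582, 611 and 651 CPM in MEFD0, 455, 473 and 479 in MEFD3min and 626, 660.1 and 599.7 in MEFD3plu. Day 5 gave 425, 448 and 416 CPM in MEFD5min against 362, 356 and 372 in MEFD5plu. Treated samples were above untreated ones at day 3 and below them at day 5, without overlap in either. The effect of treatment on the log2 scale was 0.42 ± 0.07 (SE), adjusted p = 9.82e-05, at day 3 and -0.24 ± 0.07 (SE), adjusted p = 0.0113, at day 5 (adjusted p = 0.0607 with no low-count filter), and the interaction was 0.66 ± 0.10 (SE), adjusted p = 5.7e-05.

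The calcium-regulated carriers of ATP-Mg and phosphate, Slc25a23, Slc25a24 and Slc25a25, went different ways. Slc25a25 (chr2:32414487-32451445, minus strand) was at 10.9, 13.4 and 12.7 CPM in MEFD0, 9.59, 10.1 and 9.48 in MEFD3min and 36.2, 37.1 and 31.6 in MEFD3plu. In MEFD5min it stood at 12.4, 12.8 and 13.1 CPM and in MEFD5plu at 24.3, 26.7 and 23.9. All 6 treated samples were above all 9 others, and the log2 fold change was 1.85 ± 0.10 (SE), adjusted p = 5.6e-11, at day 3 and 0.97 ± 0.10 (SE), adjusted p = 3.84e-07, at day 5 (interaction 0.88 ± 0.14 (SE), adjusted p = 5.45e-05). Slc25a24 (chr3:109123149-109168457, plus strand) was at 277, 264 and 265 CPM in MEFD0, 96.6, 92.9 and 105 in MEFD3min and 48.9, 43.9 and 45.5 in MEFD3plu. Values at day 5 were 162, 187 and 153 CPM in MEFD5min and 119, 122 and 122 in MEFD5plu. It was highest at day 0, and treated cells were below untreated ones without overlap, by a log2 fold change of -1.09 ± 0.08 (SE), adjusted p = 5.89e-09, at day 3 and -0.47 ± 0.08 (SE), adjusted p = 0.000156, at day 5 (interaction -0.63 ± 0.12 (SE), adjusted p = 0.000281).

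Slc25a23 (chr17:57043711-57059863, minus strand) was a low-level member, at 0.274, 0.398 and 0.140 CPM in MEFD0, 3.85, 3.48 and 3.53 in MEFD3min and 1.40, 1.75 and 1.86 in MEFD3plu. At day 5 it was 1.76, 2.14 and 2.03 CPM in MEFD5min and 0.715, 1.16 and 0.754 in MEFD5plu. Treated cells were lower at both days, with log2 fold changes of -1.11 ± 0.25 (SE), adjusted p = 0.000974, and -1.17 ± 0.27 (SE), adjusted p = 0.00163, and the interaction, 0.06 ± 0.36 (SE), adjusted p = 0.906, did not pass. Untreated cells at day 3 were 13.1-fold above MEFD0 in this gene, where the 3 MEFD0 libraries held 5 to 15 counts.

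Of the 7 amino acid carriers, 4 were higher and 1 was lower at each day. Slc25a29 (chr12:108825873-108835883, minus strand), which carries basic amino acids, was at 1.37, 1.03 and 1.005 CPM in MEFD0, 2.04, 2.22 and 1.38 in MEFD3min and 10.6, 11.1 and 9.84 in MEFD3plu. The MEFD5min samples were at 0.894, 0.896 and 0.703 CPM and the MEFD5plu samples at 1.49, 1.19 and 1.24. The MEFD3plu samples stood apart from the 12 others. The log2 fold change was 2.48 ± 0.19 (SE), adjusted p = 6.42e-09, at day 3 and 0.66 ± 0.23 (SE), adjusted p = 0.0248, at day 5, and the interaction of 1.82 ± 0.30 (SE), adjusted p = 9.97e-05, was the largest positive one of the 37. The call at day 5 was lost without MEFD5min replicate 4 (0.50, adjusted p = 0.126), without MEFD5plu replicate 1 (0.55, adjusted p = 0.092) and in 3 of 7 alternative settings.

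Slc25a44 (chr3:88410498-88425139, minus strand), a carrier of branched-chain amino acids known from brown fat, was at 37.1, 36.98 and 34.7 CPM in MEFD0, 28.3, 29.3 and 25.1 in MEFD3min and 65.3, 71.4 and 62.7 in MEFD3plu. Day 5 gave 20.8, 21.3 and 20.1 CPM in MEFD5min against 32.7, 30.1 and 32.6 in MEFD5plu. Treated samples were above untreated samples of the same day, and the treated samples of day 5 were below MEFD0. Fitted log2 fold changes were 1.27 ± 0.08 (SE), adjusted p = 6.62e-10, at day 3 and 0.62 ± 0.08 (SE), adjusted p = 1.01e-05, at day 5 (interaction 0.65 ± 0.12 (SE), adjusted p = 0.000196).

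Slc25a12 and Slc25a13 are the aspartate/glutamate carriers of the malate-aspartate shuttle. Slc25a13 (chr6:6041218-6217173, minus strand) was at 58.96, 61.6 and 58.3 CPM in MEFD0, 23.7, 20.6 and 22.03 in MEFD3min and 6.75, 6.20 and 7.19 in MEFD3plu. In MEFD5min it stood at 54.2, 59.7 and 57.4 CPM and in MEFD5plu at 29.8, 29.6 and 33.7. It was lower with treatment at both days, by a log2 fold change of -1.72 ± 0.09 (SE), adjusted p = 5.74e-11, at day 3 and -0.88 ± 0.08 (SE), adjusted p = 2.14e-07, at day 5, and the interaction of -0.84 ± 0.12 (SE), adjusted p = 3.14e-05, was the second largest negative one of the 37. Slc25a12 ranged from 25.3 to 39.4 CPM over the 15 samples, with a log2 fold change of 0.04 ± 0.08 (SE), adjusted p = 0.698, at day 3 and 0.28 ± 0.09 (SE), adjusted p = 0.012, at day 5. The latter call was lost without MEFD5min replicate 3 (0.21, adjusted p = 0.0668) and without MEFD5plu replicate 3 (0.23, adjusted p = 0.0657), and with library totals alone (0.12, adjusted p = 0.24). Slc25a13 made up 79.1% to 79.9% of the sum of both (CPM per kb) in MEFD0, 50.9% to 56.5% in MEFD3min, 24.4% to 26.2% in MEFD3plu, 78.3% to 82.0% in MEFD5min and 61.1% to 66.2% in MEFD5plu.

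**Figure D4:**
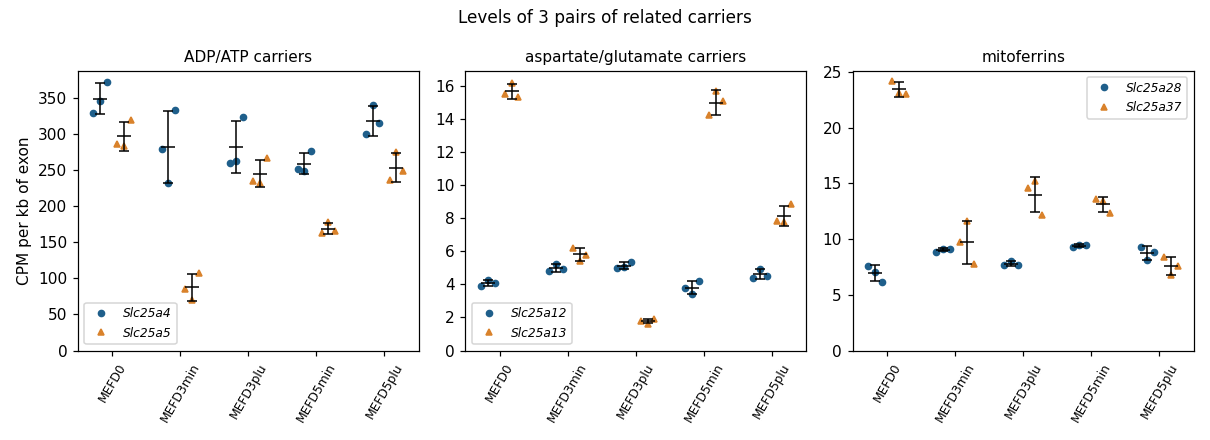
CPM per kb of exon for 3 pairs of related carriers in the 5 conditions, with a point per sample and bars for the mean ± SD (n = 3); circles and triangles mark the 2 genes of a pair. Slc25a5 drops below Slc25a4 most in MEFD3min, Slc25a13 falls below Slc25a12 in MEFD3plu alone, and Slc25a37 is farthest above Slc25a28 in MEFD0. The order within a pair depends on the exon lengths used. In CPM, Slc25a13 was below Slc25a12 in every MEFD3min sample too.

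Slc25a22, a glutamate carrier, was at 14.8 to 27.4 CPM in MEFD3min and 41.6 to 45.00 in MEFD3plu, with log2 fold changes of 0.95 ± 0.16 at day 3 and 0.85 ± 0.16 at day 5. Slc25a15, the ornithine carrier of the urea cycle, was at 16.4 to 17.4 CPM in MEFD3min, 29.2 to 30.1 in MEFD3plu and 28.4 to 32.1 in MEFD0, and its effect was 0.80 ± 0.08 at day 3 and -0.01 ± 0.08 (adjusted p = 0.907) at day 5. Slc25a38, the glycine carrier used in haem synthesis, was at 10.4 to 15.9 CPM over all samples and passed at neither day in the main fit. With library totals alone it was called lower at day 5 (-0.32, adjusted p = 0.0436, edgeR).

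Of the 8 carriers of cofactors and nucleotides, 5 were higher and 0 lower at each day (all genes: 28% and 28% at day 3, 26.3% and 24.2% at day 5). Slc25a42 (chr8:70184340-70212305, minus strand) brings coenzyme A into the matrix. It was at 6.72, 5.20 and 3.68 CPM in MEFD0, 9.21, 10.1 and 5.99 in MEFD3min and 56.5, 63.04 and 49.4 in MEFD3plu. Values at day 5 were 5.03, 5.37 and 5.92 CPM in MEFD5min and 12.3, 12.1 and 13.4 in MEFD5plu. All treated samples exceeded the 9 others, and those of day 3 were well above those of day 5. On the log2 scale the treatment effect was 2.74 ± 0.19 (SE), adjusted p = 1.35e-09, at day 3 and 1.21 ± 0.19 (SE), adjusted p = 5.93e-05, at day 5, and the interaction of 1.52 ± 0.26 (SE), adjusted p = 0.000151, was the second largest positive one.

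Slc25a33 (chr4:149744036-149774277, minus strand) imports pyrimidine nucleotides. It was at 9.91, 10.7 and 9.94 CPM in MEFD0, 4.10, 4.55 and 4.47 in MEFD3min and 30.6, 30.9 and 32.9 in MEFD3plu. At day 5 it was 4.80, 6.58 and 4.27 CPM in MEFD5min and 13.7, 13.8 and 14.5 in MEFD5plu. Treated samples were above MEFD0 and untreated ones below it. The log2 fold change was 2.85 ± 0.13 (SE), adjusted p = 6.8e-12, at day 3 and 1.44 ± 0.13 (SE), adjusted p = 8.45e-08, at day 5 (interaction 1.41 ± 0.18 (SE), adjusted p = 6.53e-06). Gm13068 overlaps 14.9% of its exon bases on the other strand. The other pyrimidine nucleotide carrier, Slc25a36, rose from 94.3 to 104 CPM in MEFD0 to 150.0 to 168 in MEFD3min, but differed by a log2 fold change of 0.01 ± 0.07 (adjusted p = 0.923) with treatment at day 3 and -0.05 ± 0.07 (adjusted p = 0.597) at day 5.

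Slc25a16 (chr10:62920633-62946498, plus strand), linked to coenzyme A transport, was at 18.1, 18.9 and 17.1 CPM in MEFD0, 16.6, 15.4 and 16.7 in MEFD3min and 42.1, 41.8 and 43.2 in MEFD3plu. The MEFD5min samples were at 14.8, 12.3 and 13.3 CPM and the MEFD5plu samples at 22.9, 24.5 and 21.4. Its treated samples lay above all untreated ones, with a log2 fold change of 1.39 ± 0.09 (SE), adjusted p = 5.84e-10, at day 3 and 0.76 ± 0.09 (SE), adjusted p = 2.36e-06, at day 5 (interaction 0.62 ± 0.12 (SE), adjusted p = 0.000579). Slc25a26 (chr6:94500331-94604672, plus strand), the carrier of S-adenosylmethionine, the methyl donor, was at 6.55, 8.03 and 9.13 CPM in MEFD0, 6.42, 5.42 and 6.46 in MEFD3min and 15.5, 16.04 and 15.9 in MEFD3plu. Day 5 gave 5.75, 6.04 and 6.002 CPM in MEFD5min against 8.49, 9.09 and 8.83 in MEFD5plu. At day 5 its treated samples were above the untreated ones but overlapped MEFD0. Its log2 fold change was 1.38 ± 0.12 (SE), adjusted p = 3.63e-08, at day 3 and 0.57 ± 0.12 (SE), adjusted p = 0.000974, at day 5 (interaction 0.81 ± 0.17 (SE), adjusted p = 0.00094).

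Among the remaining cofactor carriers, Slc25a51, which imports NAD+, was at 148 to 151 CPM in MEFD3plu and 66.9 to 104 CPM in the other 12 samples, with log2 fold changes of 0.72 ± 0.09 at day 3 and 0.09 ± 0.09 (adjusted p = 0.4) at day 5. Slc25a17, a carrier of the peroxisomal membrane, had its highest samples in MEFD5plu, at 125 to 134 CPM against 76.2 to 91.3 in MEFD5min, with 0.61 ± 0.11 at day 5. At day 3 its effect of 0.21 did not pass (adjusted p = 0.0993) but did with the replicate number as a block (0.21, adjusted p = 0.0369) or library totals alone (0.23, adjusted p = 0.0367), and its interaction of -0.40 (adjusted p = 0.0346) was lost in 8 of 12 fits without 1 sample. Slc25a32, the folate carrier, was at 26.1 to 36.3 CPM over all samples, with 0.18 at day 3 and 0.18 at day 5, neither of which passed.

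Of the 4 carriers of iron and glutathione, 3 were higher and 1 lower at day 3, and 0 were higher and 1 lower at day 5. Slc25a39 (chr11:102402985-102407946, minus strand), which imports glutathione, was at 136, 145 and 142 CPM in MEFD0, 98.5, 109 and 95.4 in MEFD3min and 194, 218 and 197 in MEFD3plu. Values at day 5 were 104, 113 and 100.4 CPM in MEFD5min and 122, 104 and 101 in MEFD5plu. Its treated samples were the highest of all at day 3 and overlapped the untreated ones at day 5. Treated cells differed by a log2 fold change of 1.01 ± 0.09 (SE), adjusted p = 2.62e-08, at day 3 and 0.04 ± 0.09 (SE), adjusted p = 0.722, at day 5, with an interaction of 0.97 ± 0.12 (SE), adjusted p = 5.83e-06. Its relative Slc25a40 was at 20.3 to 25.5 CPM in MEFD3min, 28.1 to 29.7 in MEFD3plu, 27.1 to 31.01 in MEFD5min and 27.4 to 31.8 in MEFD5plu, with an effect of 0.33 ± 0.10 at day 3 and 0.02 ± 0.09 (adjusted p = 0.901) at day 5. The direction at day 5 of both turned negative with library totals alone and with DESeq2.

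The mitoferrins Slc25a37 and Slc25a28 bring iron into mitochondria for haem and iron-sulfur clusters. Slc25a37 was at 146, 139 and 138 CPM in MEFD0, 58.8, 69.7 and 46.5 in MEFD3min and 87.8, 91.6 and 73.4 in MEFD3plu. At day 5 it was 81.7, 80.7 and 74.3 CPM in MEFD5min and 50.3, 40.9 and 45.5 in MEFD5plu. It was highest at day 0, higher with treatment at day 3 and lower at day 5, with log2 fold changes of 0.53 ± 0.12 (SE), adjusted p = 0.00138, and -0.79 ± 0.12 (SE), adjusted p = 4.88e-05, and an interaction of 1.32 ± 0.17 (SE), adjusted p = 9.54e-06. Slc25a28 was at 23.1 to 35.6 CPM over all samples, and its small effect at day 3 of -0.21 ± 0.08 (SE), adjusted p = 0.0402, was lost in 6 of 6 fits without 1 sample (adjusted p up to 0.112). Slc25a37 made up 76.2% to 78.9% of the sum of both (CPM per kb) in MEFD0, 45.9% to 56.0% in MEFD3min, 61.3% to 65.6% in MEFD3plu, 56.5% to 59.3% in MEFD5min and 45.6% to 47.3% in MEFD5plu.

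Slc25a14, Slc25a27 and Slc25a30 resemble the uncoupling proteins in sequence. Of these 3, 1 was higher and 1 lower at day 3, and 0 were higher and 2 lower at day 5. Slc25a14 was at 7.17, 8.11 and 7.98 CPM in MEFD0, 8.37, 8.17 and 9.38 in MEFD3min and 4.26, 4.20 and 5.36 in MEFD3plu. The MEFD5min samples were at 9.33, 8.10 and 7.16 CPM and the MEFD5plu samples at 7.92, 8.89 and 9.83. Its MEFD3plu samples were the lowest of the 15, whereas at day 5 the groups overlapped. Fitted log2 fold changes were -0.90 ± 0.14 (SE), adjusted p = 3.2e-05, at day 3 and 0.12 ± 0.13 (SE), adjusted p = 0.505, at day 5, and the interaction of -1.02 ± 0.19 (SE), adjusted p = 0.000373, was the largest negative one of the 37. Slc25a30 was at 26.7 to 30.5 CPM in MEFD3min, 37.7 to 40.1 in MEFD3plu, 37.1 to 39.6 in MEFD5min and 23.7 to 25.3 in MEFD5plu, with effects of 0.45 ± 0.08 (SE), adjusted p = 0.000141, at day 3 and -0.65 ± 0.08 (SE), adjusted p = 5.28e-06, at day 5 (interaction 1.10 ± 0.11 (SE), adjusted p = 7.97e-07). Slc25a27 varied more between replicates, from 4.07 to 9.40 CPM in MEFD3min, and its effect at day 5 of -0.73 ± 0.27 (SE), adjusted p = 0.0333, was lost in 4 of 6 fits without 1 sample (adjusted p up to 0.123).

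Of 6 carriers whose substrate is unsettled or that act outside the inner membrane, 3 were higher at day 3 and 5 at day 5, and 0 were lower. Slc25a34 (chr4:141618824-141623821, minus strand) had 2, 2 and 3 counts in MEFD3min and 1, 1 and 3 in MEFD5min in ascending order, which is at the floor of 3 counts per library, and 40 to 73 counts in treated samples. It was at 0.0940, 0.0562 and 0.0673 CPM in MEFD3min, 1.88, 1.25 and 1.80 in MEFD3plu, 0.0838, 0.0389 and 0.0270 in MEFD5min and 1.61, 2.35 and 1.78 in MEFD5plu, with 0.0343, 0 and 0.0837 in MEFD0. Taken against 3 counts per library, it was at least 17.7-fold higher in treated cells at day 3 and at least 20.4-fold higher at day 5. No other of the 37 carriers was at that floor in any condition. The adjusted p (edgeR, quasi-likelihood test) was 4.68e-07 at day 3 and 2.97e-07 at day 5. Slc25a34 met the count rule only through its 6 treated samples. Its direction was thus fixed by that rule, and these p-values are no support for it. It is included in the counts of carriers called higher at both days.

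Slc25a35 (chr11:68968131-68974365, plus strand) was likewise low, at 0.857, 1.19 and 1.06 CPM in MEFD0, 0.219, 0.309 and 0.0673 in MEFD3min and 1.53, 1.85 and 1.72 in MEFD3plu. Day 5 gave 0.419, 0.350 and 0.351 CPM in MEFD5min against 1.01, 1.22 and 1.12 in MEFD5plu, with 2 to 11 counts in the MEFD3min libraries. The log2 fold change was 3.04 ± 0.36 (SE), adjusted p = 1.37e-06, at day 3 and 1.57 ± 0.34 (SE), adjusted p = 0.000938, at day 5. The interaction of 1.48 ± 0.50 (SE), adjusted p = 0.0226, was lost without MEFD3min replicate 4 (1.10, adjusted p = 0.0635), without MEFD5min replicate 1 (1.38, adjusted p = 0.057) and with no low-count filter (1.46, adjusted p = 0.063). Rangrf overlaps 31.3% of its exon bases on the other strand, and the sources used here do not settle whether the counting used strand, so reads of both genes cannot be told apart there.

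Slc25a46, which acts in the outer membrane in mitochondrial shape, was at 61.9 to 75.5 CPM in MEFD3min and 83.9 to 102 in MEFD3plu, with effects of 0.45 ± 0.09 at day 3 and 0.38 ± 0.09 at day 5. Slc25a45 was at 9.02 to 10.3 CPM in MEFD0 and 23.98 to 28.5 in both groups of day 3, so that it differed between MEFD3min and MEFD0 by a log2 fold change of 1.47 ± 0.09 (SE), adjusted p = 5.54e-10, and between MEFD3plu and MEFD3min by -0.08 ± 0.09 (SE), adjusted p = 0.45. At day 5 it was 0.49 ± 0.09 (SE), adjusted p = 0.000287. Slc25a53 was at 2.68 to 2.85 CPM in MEFD0 and 5.22 to 6.05 at day 3, with an effect of 0.42 ± 0.13 (SE), adjusted p = 0.013, at day 5, lost without MEFD5min replicate 4 (0.33, adjusted p = 0.0933) and without MEFD5plu replicate 4 (0.35, adjusted p = 0.0668), and with library totals alone (0.26, adjusted p = 0.112). Slc25a47, a carrier known from liver, was at 2.01 to 4.20 CPM over all samples.

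Untreated cells also changed with time in culture. Between MEFD0 and MEFD3min, 28 of 37 carriers passed (60% of all genes), 12 rising and 16 falling (31.4% and 28.6% of all genes), and between MEFD0 and MEFD5min 23 passed (46.4%), 8 rising and 15 falling (24.5% and 21.9%). From MEFD3min to MEFD5min, 16 passed (42.8%), 8 rising and 8 falling (21.3% and 21.5%). Groups did not overlap for 29 carriers between MEFD0 and MEFD3min (60.3% of all genes), 26 between MEFD0 and MEFD5min (57.4%) and 22 between MEFD3min and MEFD5min (46.8%), and 10 (25.4%), 2 (15.2%) and 2 (13.4%) were called with at least 2-fold. These comparisons share samples with each other and with the treatment comparisons. Slc25a5, Slc25a10, Slc25a13, Slc25a24, Slc25a33, Slc25a35 and Slc25a37 fell at least 2-fold from MEFD0 to MEFD3min, with log2 fold changes of -2.33 for Slc25a35, -1.76 for Slc25a5 and -1.54 for Slc25a10 at the far end and -1.22 for Slc25a33 at the near end. Slc25a23, Slc25a45 and Slc25a53 rose at least 2-fold, from 1.06 for Slc25a53 to 3.72 for Slc25a23. From MEFD3min to MEFD5min, Slc25a13 rose by 1.37 ± 0.08 (SE), adjusted p = 1.34e-09, and Slc25a29 changed by -1.19 ± 0.22 (SE), adjusted p = 0.00036, on the log2 scale. In this way Slc25a10 in MEFD3plu stood above MEFD0 as well as above MEFD3min, while Slc25a5 in MEFD3plu, at 382 to 439 CPM, stayed below its 467 to 526 CPM in MEFD0.

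From MEFD3plu to MEFD5plu, 24 carriers passed (63% of all genes), 5 rising and 19 falling, where over all genes 33.8% rose and 29.2% fell. The factors were removed in this interval, and their removal cannot be told apart from further time in culture. Untreated cells changed over the same days too, with Slc25a13 higher and Slc25a29 lower in MEFD5min than in MEFD3min. The median log2 fold change was -0.35 against 0.063 over all genes, 6 were called with at least 2-fold (24.9% of all genes), and 29 did not overlap (69.6%). Slc25a13 rose by 2.21 ± 0.09 (SE), adjusted p = 6.59e-12, and Slc25a24 by 1.39 ± 0.08 (SE), adjusted p = 4.33e-10, on the log2 scale. Slc25a29 and Slc25a42 fell, with log2 fold changes of -3.005 ± 0.20 (SE), adjusted p = 1.4e-09, and -2.16 ± 0.18 (SE), adjusted p = 2.63e-08. Slc25a33 and Slc25a44 changed by -1.17 ± 0.12 and -1.06 ± 0.08, both passing. The 3 others that rose, Slc25a14, Slc25a17 and Slc25a53, did so by 0.94, 0.28 and 0.36. Slc25a34 did not pass, at 0.22 ± 0.32 (adjusted p = 0.578), nor did Slc25a1, at 0.14 ± 0.08 (adjusted p = 0.137).

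Carriers are imported through the outer membrane TOM complex and inserted by the TIM22 complex, helped by small TIM chaperones. The lists of partner genes that follow stand against the same shares of all genes, 28% higher and 28% lower at day 3 and 26.3% and 24.2% at day 5, and against all-gene medians of -0.0006 and 0.01. Of 15 such genes tested out of 16, 12 were higher and 0 lower at day 3, with a median log2 fold change of 0.615, and 6 were higher and 1 (Tomm40, the pore of the TOM complex, -0.43 ± 0.09) lower at day 5, with a median of 0.316. With the replicate number as a block, 11 passed at day 5, 10 of them higher. Over all 15997 genes, 8607 passed at day 5 with the block and 8080 in the main fit. Of 13 enzymes of citrate export and the malate-aspartate shuttle, 12 were higher and 1 (Idh2, -0.73 ± 0.07) lower at day 3, and 8 were higher and 3 lower at day 5, with medians of 1.09 and 0.35. Pcx, which makes oxaloacetate from pyruvate in mitochondria, had the largest effects among them, 6.19 ± 0.15 at day 3 and 4.73 ± 0.14 at day 5. Acly, which splits exported citrate, was higher at day 3 (0.71 ± 0.09) and did not pass at day 5 (-0.02 ± 0.09).

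Of 18 other mitochondrial membrane transporters, 7 were higher and 6 lower at day 3 and 9 higher and 5 lower at day 5, with medians of -0.041 and 0.284. At day 3 their median and their near-even split were close to those of all genes (28% higher, 28% lower, median -0.0006). The mitochondrial pyruvate carrier subunits were high among them, Mpc1 at 2.56 ± 0.18 and 2.57 ± 0.18 and Mpc2 at 2.13 ± 0.14 and 2.46 ± 0.15 at day 3 and day 5. Among 5 members of the carrier family with other symbols, 3 were higher and 2 lower at day 3, and 4 were higher and 0 lower at day 5. The uncoupling protein Ucp2 was higher at both days (1.70 ± 0.17 and 1.13 ± 0.17), whereas Ucp1, the uncoupling protein of brown fat, was lower at day 3 (-1.37 ± 0.30) and higher at day 5 (1.36 ± 0.24). Of 9 regulators of mitochondrial gene expression, 6 were higher and 0 lower at day 3, and 6 were higher and 2 lower at day 5, with medians of 0.69 and 0.38. Ppargc1a, a coactivator of mitochondrial genes, was higher by log2 fold changes of 3.69 ± 0.24 and then 2.81 ± 0.25.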

How the data were processed

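RNA-Seq libraries of 15 MEF samples (5 conditions, replicate numbers 1, 3 and 4 in each) were sequenced by the authors, and the deposited files hold raw read counts per Ensembl gene, not normalized, for 46603 genes, of which 46091 have a GENCODE M21 name. The submitters' processing notes name TopHat2 2.1.0, HTSeq, DESeq2 and GRCm38/mm10 without further detail. The annotation release and the strand setting of the counting are not given in the sources used here, and the labels and the methods name different library kits, of which 1 keeps strand. Total counts per sample were 24030558 to 37281126, and columns of samples outside the series numbered 0.

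Groups were taken from the sample labels. The counts of all 15 samples were fitted in 1 model with edgeR 4.0.16 (R 4.3.3; filterByExpr, TMM scaling, quasi-likelihood test), leaving 15997 genes. P-values were adjusted over all of them by Benjamini-Hochberg, with calls at 0.05, in 6 pairwise comparisons and 1 interaction. Standard errors are from the fit. CPM were TMM-scaled, and CPM per kb used the union of exons. A level at or under 3 counts per library was treated as the floor. Exact permutation of 3 against 3 samples cannot go below p = 0.1 and was not used.

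Carriers were selected by symbol and by 10 or more counts in at least 3 samples. Of the genes of the name pattern, 2 are not reported here. Members, role groups, marker lists and partner lists were chosen with earlier results of these data known, and no list is independent support for its direction. By rule, values per sample and full statistics were given for carriers called with at least 2-fold in a treatment comparison, for Slc25a1, Slc25a3, Slc25a4, Slc25a5, Slc25a10 and Slc25a11 whatever their change, and for the 2 largest interactions in each direction. Slc25a37 and the genes named from the partner lists were chosen after their values were seen, and other carriers were given by ranges. Promoter windows are from RefSeq (GRCm38.p6), and motif matches were exact.

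Replicate pairs of a condition differed beyond counting noise (chi-square per degree of freedom 5.7 to 115), so no library was counted as a duplicate. Samples with the same number deviated together at day 3 (correlations of 0.143, 0.228 and 0.36 between MEFD3plu and MEFD3min), but not at day 5 (0.0422, -0.00453 and 0.0538). The fit without a block was kept as the main one, and the replicate number as a block was an alternative. The other alternatives were DESeq2 1.42.0, its size factors in edgeR, library totals alone, no low-count filter, a minimum of 10 counts in every sample, a fit of the compared samples only and leaving out each sample. The procedure was tested on simulated counts with known changes. Few genes were changed there, and in MEFD3plu alone, so that test cannot speak to the choice of scaling where many genes differ.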

Additional observations from a re-analysis of the deposited data

Results flagged for a closer look

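The effect of treatment differed between day 3 and day 5 by a tested interaction for 24 of the 37 carriers (adjusted p from edgeR, quasi-likelihood test; 48.5% of all genes tested), given here as the log2 fold change at day 3 minus that at day 5. It was positive for 16. The values were 1.82 for Slc25a29, 1.52 for Slc25a42, 1.48 for Slc25a35, 1.41 for Slc25a33, 1.37 for Slc25a10, 1.32 for Slc25a37 and 1.1 for Slc25a30. They were 0.97 for Slc25a39, 0.9 for Slc25a5, 0.88 for Slc25a25, 0.82 for Slc25a15, 0.81 for Slc25a26, 0.66 for Slc25a3, 0.65 for Slc25a44, 0.63 for Slc25a51 and 0.62 for Slc25a16. Of these 16, Slc25a3, Slc25a30 and Slc25a37 were higher with treatment at day 3 and lower at day 5.

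The interaction was negative for 8 carriers. It was -1.02 for Slc25a14, lower with treatment at day 3 and not called at day 5, and -0.84 for Slc25a13 and -0.63 for Slc25a24, lower at both days. It was -0.57 for Slc25a45, -0.49 for Slc25a53, -0.48 for Slc25a11, -0.4 for Slc25a17 and -0.28 for Slc25a1. The calls for Slc25a1, Slc25a17 and Slc25a53 were lost in 10, 8 and 9 of 12 fits that left out 1 sample, and that for Slc25a35 in 2 of 12.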

How the results depend on the processing

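Of the 77 calls of carriers in both treatment comparisons and their interaction, 11 were lost under at least 1 alternative or left-out sample. Over the alternatives 710 of 768 values kept their direction and side of the threshold, 28 lost a call, 10 gained one and 20 changed sign. With 1 sample left out these were 802 of 888, 50, 7 and 29. Counts of called carriers were 25 to 28 (MEFD3plu/MEFD3min), 24 to 26 (MEFD5plu/MEFD5min), 20 to 24 (interaction), 25 to 30 (MEFD3min/MEFD0), 21 to 24 (MEFD5min/MEFD0), 14 to 17 (MEFD5min/MEFD3min) and 19 to 24 (MEFD5plu/MEFD3plu) with 1 sample left out. Over all genes, in the same order, 8157 to 9283, 6818 to 7692, 7032 to 8498 and 8860 to 9692 were called. The last comparisons gave 6226 to 7119, 5937 to 7286 and 9146 to 9950, with 16388 to 16481 genes tested. At day 3 and day 5 the partner lists then gave 10 to 13 and 5 to 7 (import), 13 to 13 and 10 to 11 (enzymes), 13 to 15 and 11 to 14 (other transporters), 6 to 6 and 6 to 8 (regulators), and 5 to 5 and 4 to 4 (other symbols). The replicate block gave 27, 27, 24, 30, 24, 16 and 25 called carriers in the 7 comparisons named above. The main fit called 8967, 8080, 7754, 9602, 7421, 6845 and 10071 of all 15997 genes in them. With the block these were 9452, 8607, 8305, 10010, 7970, 7420 and 10415. In the treatment comparisons and the interaction the block changed the call of Slc25a17 at day 3 (0.2148), and of no other carrier, and it moved the import genes called at day 5 from 7 to 11. Library totals alone gave 5 regulators at day 5, where 8303 of all 15997 genes were called. A minimum of 10 counts in every sample, which also drops Slc25a23, Slc25a34 and Slc25a35, left 3 called genes with other symbols at day 3 and 2 at day 5, fewer being tested. The causes of the other shifts were not tested.

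Sign changes were of uncalled values. At day 3, Slc25a4 was -0.0088 with DESeq2 and with its size factors, -0.0155 with no filter, -0.0014 with 10 counts in every sample and -0.0099 with the compared samples only, Slc25a11 was -0.0071 and Slc25a36 -0.006 with no filter, and with the compared samples only they were -0.0019 and -0.0012. At day 5, library totals alone gave -0.0482 for Slc25a14, -0.1222 for Slc25a39, -0.1458 for Slc25a40 and -0.0716 for Slc25a51, DESeq2 gave -0.0032 for Slc25a39 and -0.0291 for Slc25a40, and its size factors -0.0035 and -0.0281. For the interaction, library totals alone gave 0.08 for Slc25a28, and Slc25a32 was -0.0126 with no filter and -0.004 with 10 counts in every sample. With 1 sample left out, ranges that crossed 0 were at day 3 -0.119 to 0.139 (Slc25a4), -0.040 to 0.078 (Slc25a11) and -0.034 to 0.068 (Slc25a36). At day 5 they were -0.020 to 0.221 (Slc25a14), -0.096 to 0.051 (Slc25a15), -0.047 to 0.091 (Slc25a39), -0.040 to 0.073 (Slc25a40), -0.226 to 0.021 (Slc25a47) and -0.012 to 0.173 (Slc25a51). For the interaction they were -0.117 to 0.286 (Slc25a22), -0.065 to 0.309 (Slc25a23), -0.058 to 0.082 (Slc25a32) and -0.0037 to 0.151 (Slc25a46). With MEFD3min replicate 4 left out, Slc25a17 (0.34, adjusted p = 0.00592), Slc25a27 (-0.61, adjusted p = 0.0259) and Slc25a32 (0.24, adjusted p = 0.0289) passed at day 3. With library totals alone (edgeR), Slc25a28 (-0.27, adjusted p = 0.0185) and Slc25a36 (-0.21, adjusted p = 0.0457) were called lower at day 5. So was Slc25a38 (-0.32, adjusted p = 0.0436). Slc25a32 passed at day 3 in that setting (0.20, adjusted p = 0.0471), and at day 5 without MEFD5plu replicate 1 (0.24, adjusted p = 0.0372). The interaction passed for Slc25a40 with DESeq2 (0.35, adjusted p = 0.0236) and for Slc25a38 with library totals alone (0.48, adjusted p = 0.0328, edgeR). It passed for Slc25a4 without MEFD3min replicate 3 (-0.42, adjusted p = 0.0241, edgeR). Depth limits Slc25a23, Slc25a34 and Slc25a35, with under 20 counts in some libraries.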
